A study of Mus musculus with 11 samples.

Results

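The miR-106b-25 and miR-106a-363 clusters are the paralogs of the miR-17-92 cluster in the mouse, and their mature miRNAs were followed here in cultured spermatogonial progenitor cells (SPCs) with and without knockdown of Mov10, which encodes an RNA helicase. Members were taken by name from the small RNA data, as every listed 5p or 3p form of miR-106b, miR-93 and miR-25 and of miR-106a, miR-18b, miR-20b and miR-363. This gave 13 of the 1096 listed mature miRNAs, of which 6 belong to the miR-106b-25 cluster and 7 to the miR-106a-363 cluster. The mature miR-19b-3p and miR-92a-3p are made by the miR-106a-363 cluster and by the miR-17-92 cluster alike, and were therefore not counted as members, nor was miR-92a-2-5p, the other arm of the X-linked hairpin Mir92-2, whose stem is not among those named.

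SPCs are germ cells of the mouse pup testis, selected for the surface protein Thy1 and grown on inactivated STO fibroblasts, so that RNA of both cell types may be present. Control cells were transduced with the lentiviral shRNA vector alone, and knockdown cells with the same vector carrying an shRNA against Mov10; the labels call them Mov10 Vector and Mov10 knockdown. The labels give the strain as C57BL/6 and the age as postnatal day 6, whereas the methods name B6;129S-Gt(Rosa)26Sor/J mice as the source. Each group is 1 small RNA library, and whether the triplicate samples named in the methods were pooled in it is not given in the sources used here. The values therefore carry counting error only and no spread between cultures, and the knockdown itself cannot be checked from small RNAs.

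Members of a miRNA cluster are cut from 1 shared primary transcript, first by Drosha and then by Dicer, and usually 1 arm of each hairpin is kept in an Argonaute protein while the other is degraded. Target choice rests mostly on the seed, bases 2 to 8 from the 5′ end, so that forms with the same seed are thought to act on overlapping mRNAs. The miR-106b-25 cluster is transcribed with Mcm7, which encodes a subunit of the replicative helicase, and it and miR-17-92 are known to be repressed when spermatogonia differentiate. miR-20 and miR-106a have been linked to the self-renewal of mouse spermatogonial stem cells.

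In the GRCm38 assembly (RefSeq hairpins), Mir106b, Mir93 and Mir25 lie within 498 bp on the minus strand of chromosome 5, from 138165321 to 138165818. All 3 hairpins fall in intron 13 of the 15-exon transcript Mcm7-201 of GENCODE vM21, and Mir93 and Mir25 also fall in the first exon of the short transcript Mcm7-202. The 6 hairpins of the other cluster, Mir106a, Mir18b, Mir20b, Mir19b-2, Mir92-2 and Mir363, occupy 875 bp on the minus strand of chromosome X, from 52741693 to 52742567. Only Mir106a overlapped another annotated gene, at the end of the last exon of the noncoding RNA gene Kis2. Mature sequences were found in RefSeq for 12 of the 13 forms, all but miR-363-5p.

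The forms below are shown because they pair the clusters by seed, which is written in capitals (5′ to 3′). The first 5 have the miR-17 seed, and miR-17-5p of the miR-17-92 cluster stands among them as the closest relative of miR-106a-5p.

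miR-106b-5p: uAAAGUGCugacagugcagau
miR-93-5p: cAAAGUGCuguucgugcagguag
miR-106a-5p: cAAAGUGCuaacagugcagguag
miR-20b-5p: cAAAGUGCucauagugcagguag
miR-17-5p: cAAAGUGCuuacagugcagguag
miR-25-3p: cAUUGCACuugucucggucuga
miR-363-3p: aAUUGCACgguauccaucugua
miR-18b-5p: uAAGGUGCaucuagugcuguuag
miR-25-5p: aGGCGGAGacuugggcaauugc

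miR-25-3p and miR-363-3p share their seed, but differ at 13 of 22 positions, all of them outside it. miR-106a-5p differs from miR-17-5p by the single substitution U10A, counted from the 5′ end of miR-17-5p, and from miR-20b-5p at 2 positions. miR-18b-5p has the seed of miR-18a-5p, and miR-25-5p is shown as the minor arm with the lowest knockdown to control ratio in the miR-106b-25 cluster.

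The libraries differed in depth, with 9628835 miRNA reads for control SPCs and 2794593 for knockdown SPCs. The deposited TPM is reads per 1000000 of a library total, 10518277 reads for control SPCs against 3194363 for knockdown SPCs, without a length correction. A single read was worth 0.0951 TPM and 0.313 TPM, respectively. The printed member sequences are 21 to 23 bases long, so levels of different forms are compared as TPM below. Whether different sequences were captured equally well in the libraries was not tested, so these levels are shares of reads. Of the markers checked, 12 were forms of miR-290a, miR-291a, miR-292a, miR-293, miR-294 and miR-295, a group of germ and stem cells. miR-291b and miR-292b were not on this list. All 12 had reads in both libraries, with a sum of 2106 TPM in control SPCs and 1299 TPM after knockdown. Of the 12, 8 were reduced over 1.5-fold, which was the case for 41.5% of all miRNAs above 1.5 TPM. The 6 fibroblast forms summed to 27551 and 32135 TPM, respectively, none of them past 1.5-fold. The 7 forms of miR-34b, miR-34c, miR-449a and miR-449c, which are typical of later germ cells, summed to 9765 and 18034 TPM, mostly from miR-34c-5p (9034 and 16687 TPM). Of these 7, miR-34b-5p and miR-34c-5p were raised over 1.5-fold, 0 were reduced, and the median log2 fold change was 0.14. The 5 forms of blood cells summed to 172 and 31.9 TPM. Only 2 of them, miR-142a-3p and miR-142a-5p, were above 1.5 TPM in at least 1 library, and both were reduced. The part that cell composition had in the differences below was not tested, and in bulk RNA fewer cells of a type cannot be told apart from less RNA per cell.

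The member forms of the 2 clusters were present at very different levels. Summed over its 6 forms, the miR-106b-25 cluster had 220122 reads in the control library and 56828 in that of the knockdown, which is 20928 TPM (95% exact Poisson interval 20840 to 21015) and 17790 TPM (17644 to 17937). The 7 member forms of the miR-106a-363 cluster had 202 and 29 reads, that is 19.2 TPM (16.6 to 22.0) and 9.08 TPM (6.08 to 13.0). Reads of the Mcm7 cluster thus outnumbered those of the 7 X-linked member forms 1090-fold in the control library and 1960-fold after knockdown. This does not hold for the whole X-linked cluster, which also makes miR-19b-3p and miR-92a-3p. With the miR-19b and miR-92a forms added, its sum was 287203 and 65597 reads, of which the share from the miR-17-92 cluster is not known.

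**Figure D1:**
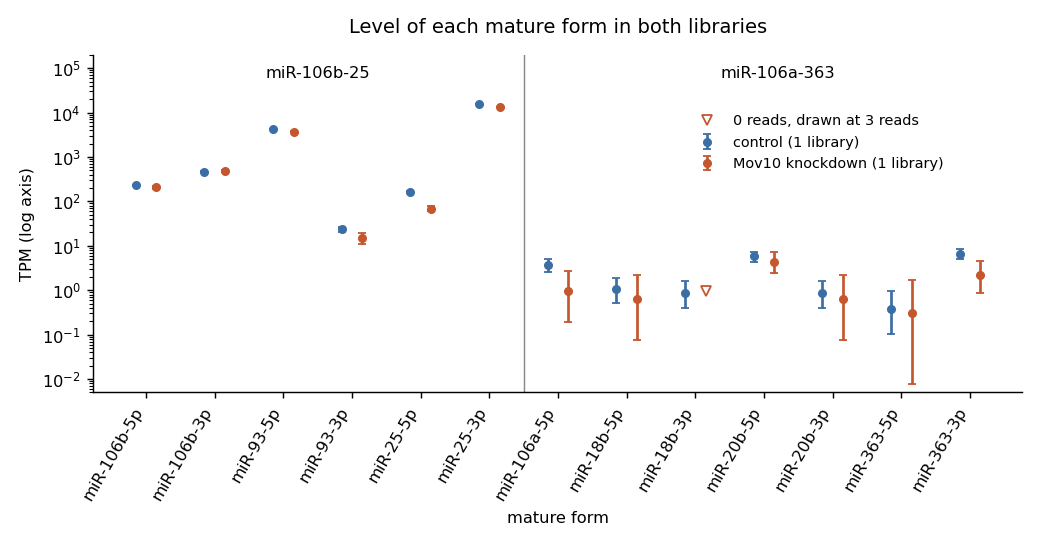
TPM of the 13 mature forms (log axis) in the control library and the Mov10 knockdown library, with exact 95% Poisson intervals that cover counting error only. All 6 forms of the miR-106b-25 cluster sit above all 7 forms of the miR-106a-363 cluster in both libraries, and the open triangle marks miR-18b-3p, which had 0 reads in the knockdown and is drawn at the value of 3 reads.

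Within the miR-106b-25 cluster, miR-25-3p was the most abundant form, with 166608 control and 42536 knockdown reads, or 15840 and 13316 TPM. It ranked 16th of 1096 in both libraries and made up 75.7% of the cluster's control reads and 74.9% of its knockdown reads. miR-93-5p had 44228 and 11807 reads, or 4205 and 3696 TPM, and contributed 20.1% and 20.8% of the cluster. The 6 forms had the same order of level in both libraries.

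The Mir106b hairpin was the exception to the dominance of 1 arm in this cluster. miR-106b-3p had 4932 control reads (469 TPM) and 1557 knockdown reads (487 TPM), more than miR-106b-5p, which had 2424 (230 TPM) and 662 (207 TPM). The 5p arm, which carries the miR-17 seed, held 33.0% of the hairpin's reads in the control (95% exact binomial interval 31.9 to 34.0%) and 29.8% in the knockdown (27.9 to 31.8%). By contrast, miR-93-3p had only 249 and 48 reads beside its 5p partner, and miR-25-5p only 1681 and 218 reads beside its 3p partner.

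The highest form of the miR-106a-363 cluster in the control was miR-363-3p, which shares the seed of miR-25-3p and had 70 control and 7 knockdown reads, or 6.66 and 2.19 TPM. miR-20b-5p had 61 and 14 reads (5.80 and 4.38 TPM), and miR-106a-5p had 38 and 3 reads (3.61 and 0.939 TPM). In the control, the intervals of miR-363-3p (5.19 to 8.41 TPM) and miR-106a-5p (2.56 to 4.96 TPM) did not overlap, whereas that of miR-20b-5p (4.44 to 7.45 TPM) overlapped both. After knockdown miR-20b-5p was the highest, with an interval (2.40 to 7.35 TPM) that overlapped those of the other two.

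The remaining forms of the cluster were close to the limit of detection. miR-18b-5p had 11 and 2 reads (TPM ratio of knockdown to control 0.599, 95% exact interval 0.0645 to 2.74), miR-20b-3p had 9 and 2 (0.732, 0.0769 to 3.54), and miR-363-5p had 4 and 1 (0.823, 0.0167 to 8.32). miR-18b-3p had 9 control reads and 0 knockdown reads, where a count of 0 allows up to 0.939 TPM, which is above its control level of 0.856 TPM. A difference in these 4 forms was not detectable at this depth. The arm that is made only by the X-linked hairpin Mir92-2, miR-92a-2-5p, was as low, with 0 and 1 reads, whereas its counterpart miR-92a-1-5p of the miR-17-92 cluster had 7301 and 2187.

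Between the libraries, 9 of the 13 forms were above 1.5 TPM in at least 1 library, including all 6 of the Mcm7 cluster and 3 of the X-linked cluster. Of these, 4 were reduced over 1.5-fold in the knockdown and 0 were raised, on the log2(TPM + 0.1) scale. Among all 607 miRNAs above the minimum, 41.5% were reduced and 15.8% raised, so the members' share of 44.4% reduced was near that of all miRNAs. Of the reduced forms, miR-106a-5p passed the minimum only in the control library, where it was higher. With more than 1.5 TPM asked of both libraries its call was lost, and 3 of 8 members were reduced, against 37.5% of all. An exact binomial test of the reads, Benjamini-Hochberg adjusted over all 1096 miRNAs, found 7 of the 13 forms lower and 0 higher in the knockdown library, against 21.4% lower and 10.7% higher among all. At an unadjusted p under 0.05 the exact test again gave 7 and 0 members, against 23.5% and 12.0% of all miRNAs. Tested only above 1.5 TPM, all 7 were among the 9 members left, against 40.2% lower among all 607. Here too miR-106a-5p was kept only through the control library, where it was higher. Such a test passes smaller differences where reads are many, and 5 of the 7 forms belonged to the Mcm7 cluster, which had far more reads. It speaks for this pair of libraries, and not for the conditions.

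The numbers of members depended on the scaling. The median of all 607 miRNAs was -0.37 on the log2 scale. Scaling by the median ratio used a different value, a ratio of 0.840, which moves log2 values by 0.25, or by less for forms with few reads because of the added 0.1 TPM. It left 2 forms lower and 2 higher in the binomial test, against 16.7% and 15.4% of all miRNAs. TMM factors (a shift of 0.22) left 3 lower and 1 higher, against 17.1% and 14.5% of all. With 1 common total for both libraries, that is with reads as counted, 11 forms were lower and 0 higher, against 55.4% and 0.912% of all, and all 9 above the minimum were reduced over 1.5-fold, against 96.6% of all. Over all miRNAs the numbers reduced and raised over 1.5-fold were 252 and 96 with the deposited TPM, 191 and 144 with the median ratio, and 561 and 10 with a common total.

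The main forms of the Mcm7 cluster differed little between the libraries in TPM. miR-25-3p had a knockdown to control TPM ratio of 0.841 (95% exact interval 0.832 to 0.850), miR-93-5p of 0.879 (0.861 to 0.897) and miR-106b-5p of 0.899 (0.824 to 0.980). All 3 were lower in the binomial test, at differences far under 1.5-fold, but their summed cluster was at a log2 ratio of -0.23 with the deposited TPM and at 0.02 when scaled by the median ratio, so the direction depends on the scaling. miR-106b-3p had a ratio of 1.04 (0.981 to 1.10) and did not pass. Relative to the median of all miRNAs above the minimum, a ratio of 0.775, these 4 forms were higher. Scaled by the median ratio, a different value of 0.840, miR-25-3p was level, at a log2 fold change of 0.00. miR-93-5p was then at 0.07, miR-106b-5p at 0.10 and miR-106b-3p at 0.31. The median log2 fold change over all 6 forms was -0.22 with the deposited TPM.

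The forms of the cluster reduced over 1.5-fold were miR-25-5p and miR-93-3p, the minor arms of their hairpins. miR-25-5p was at 160 TPM in control SPCs and 68.2 TPM after knockdown, a ratio of 0.427 (0.369 to 0.492) and a log2 fold change of -1.23. miR-93-3p was at 23.7 and 15.03 TPM, a ratio of 0.635 (0.456 to 0.867) and a log2 fold change of -0.65. The interval of miR-93-3p spans the 1.5-fold limit, and its call was lost when values were scaled by the median ratio or by TMM factors.

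**Figure D2:**
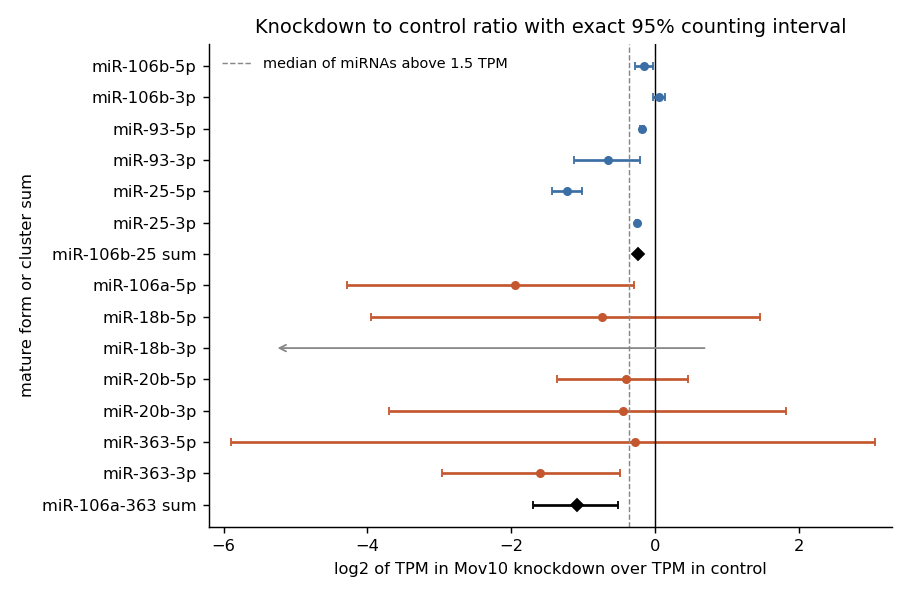
Log2 of the TPM ratio of Mov10 knockdown to control for each form and for the sum of each cluster, with exact 95% intervals for counting error (1 library per group). The dashed line is the median of all miRNAs above 1.5 TPM, the arrow marks miR-18b-3p with 0 knockdown reads, and the intervals of the X-linked forms are far wider than those of the Mcm7 cluster.

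A pair of forms of the X-linked cluster was reduced over 1.5-fold, each with few reads. miR-363-3p had a TPM ratio of 0.329 (0.128 to 0.715) and a log2 fold change of -1.56, and miR-106a-5p had a ratio of 0.260 (0.0513 to 0.819) and a log2 fold change of -1.84. Both intervals span the 1.5-fold limit, and the knockdown level of miR-106a-5p, 0.939 TPM or 3 reads, is at the limit of detection used here. miR-20b-5p, at a ratio of 0.756 (0.390 to 1.37), did not pass either criterion. Over the 7 forms the median log2 fold change was -0.66, and -0.40 with miR-18b-3p placed at 3 reads. Over all 1096 listed miRNAs, likewise without a minimum, the median was -0.64, so the -0.66 was near that of all miRNAs.

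The 2 clusters were compared by the ratio of their reads within each library, which does not depend on any library total. Summed reads of the X-linked cluster were 0.0918% of those of the Mcm7 cluster in control SPCs (95% exact interval 0.0795 to 0.105%) and 0.0510% after knockdown (0.0342 to 0.0733%). The X-linked cluster was thus at 0.556 of its control level relative to the Mcm7 cluster (95% exact conditional interval 0.363 to 0.823). With the miR-19b and miR-92a forms that the X-linked cluster also makes, the value was 0.885 (0.874 to 0.896). Among the member forms it rested on a pair of them: it was 0.614 (0.389 to 0.933) without miR-106a-5p, 0.646 (0.391 to 1.02) without miR-363-3p and 0.783 (0.451 to 1.29) without both, alternatives chosen after seeing the data.

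Pairs with the same seed, 1 form from each cluster, were compared in the same way in 5 combinations, with intervals and no test. miR-363-3p was at 0.392 of its control level relative to miR-25-3p (0.152 to 0.850). miR-106a-5p was at 0.289 relative to miR-106b-5p (0.0569 to 0.916) and at 0.296 relative to miR-93-5p (0.0584 to 0.932), and both values rest on the same 3 knockdown reads. For miR-20b-5p the corresponding values were 0.840 (0.431 to 1.53) and 0.860 (0.444 to 1.56), so that no difference was detectable at this depth.

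**Figure D3:**
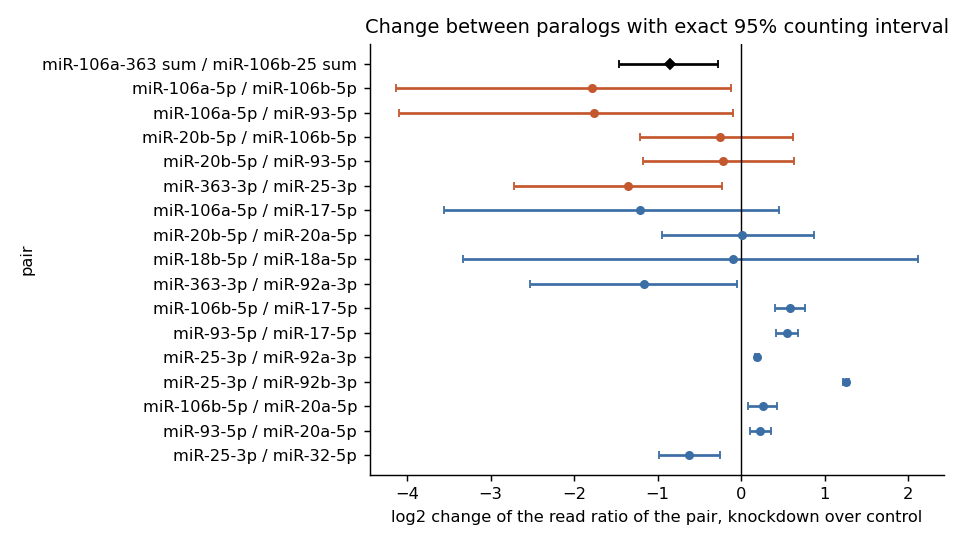
Log2 change, knockdown over control, of the read ratio between the first and the second form of each pair, with exact 95% conditional intervals for counting error. The diamond compares the cluster sums, orange points the 5 same-seed pairs between the clusters, and blue points the 11 pairs with a relative that is no member, which were added after seeing the data; the miR-106a-5p and miR-363-3p pairs of the clusters lie below 0, the miR-20b-5p pairs span it.

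The X-linked forms were also set beside their nearest relatives of the miR-17-92 cluster, in pairs added after seeing the data. miR-106a-5p had 1.18% of the reads of miR-17-5p in the control (0.833 to 1.62%) and 0.510% in the knockdown (0.105 to 1.498%). miR-20b-5p had 2.03% and 2.05% of the reads of miR-20a-5p, from which it differs by U1C and U10C, and miR-18b-5p had 1.73% and 1.61% of those of miR-18a-5p, from which it differs by A18U and A20U. Each of these 3 shares had overlapping intervals in the 2 libraries. miR-363-3p was at 0.447 of its control level relative to miR-92a-3p (0.173 to 0.970). Because miR-106a-5p differs at 1 base from miR-17-5p, which had 84.8 times its reads in the control, its low counts are uncertain.

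The Mcm7 forms were also set beside non-member miRNAs of the same seed, again in pairs added after seeing the data, and were higher in the knockdown library relative to all but 1 of them. miR-17-5p had 3223 and 588 reads, and relative to it miR-106b-5p was 1.497 times its control level (1.32 to 1.70) and miR-93-5p 1.46 times (1.34 to 1.60). Relative to miR-20a-5p, with 2999 and 684 reads, these values were 1.20 (1.06 to 1.35) and 1.17 (1.07 to 1.28). miR-25-3p was 1.14 times its control level relative to miR-92a-3p (1.12 to 1.16) and 2.39 times relative to miR-92b-3p (2.33 to 2.46), which had 73596 control and 7852 knockdown reads. The exception was miR-32-5p, with 229 and 90 reads, relative to which miR-25-3p was at 0.650 of its control level (0.507 to 0.839). As ratios of reads within a library, these values do not depend on the scaling.

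Of the 12 listed forms of the related miR-17-92 cluster, including miR-92a-3p and miR-19b-3p, all 12 of them above the minimum, 5 were reduced over 1.5-fold (both forms of miR-18a, miR-17-5p, miR-19a-5p and miR-20a-3p) and 1 was raised, against 41.5% and 15.8% of all miRNAs. The raised form was miR-19b-1-5p, with 2 and 7 reads (ratio 11.5, 2.19 to 113.7). It passed the minimum only in the knockdown library, and miR-19a-5p only in the control library, each where it was higher. miR-92a-3p had a TPM ratio of 0.737 (0.731 to 0.744), and miR-19b-3p, which both clusters make, of 1.47 (1.41 to 1.54). Because the X-linked and the Mir17hg copies give the same mature miR-19b-3p and miR-92a-3p, their reads cannot be divided between the clusters.

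Pooled by seed, the members held very unequal shares of the reads of miRNAs that could act on the same targets. Seeds could be read for the 908 listed miRNAs matched by name to RefSeq. The miR-17 seed was found in 6 of them, with 5036 TPM in control SPCs and 4307 TPM after knockdown, a ratio of 0.855 (0.839 to 0.871). miR-93-5p and miR-106b-5p together contributed 88.1% of these reads in the control (87.8 to 88.3%) and 90.6% in the knockdown (90.1 to 91.1%), whereas miR-20b-5p and miR-106a-5p together contributed 0.187% (0.152 to 0.227%) and 0.124% (0.0720 to 0.198%). The miR-17 seed in these libraries was thus read mostly from the Mcm7 cluster, and miR-17-5p and miR-20a-5p added the remaining 11.7% and 9.25%.

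The seed of miR-25-3p was shared by 5 listed miRNAs with 49593 TPM in control SPCs and 35507 TPM after knockdown, a ratio of 0.716 (0.711 to 0.721). miR-25-3p held 31.9% of these reads in the control (31.8 to 32.1%) and 37.5% in the knockdown (37.2 to 37.8%), second to miR-92a-3p with 53.9% and 55.5%. miR-92b-3p went from 14.1% to 6.92% of the group, and miR-363-3p from 0.0134% to 0.00617%. In the miR-18 seed pair, miR-18b-5p held 1.70% and 1.59% of the reads.

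**Figure D4:**
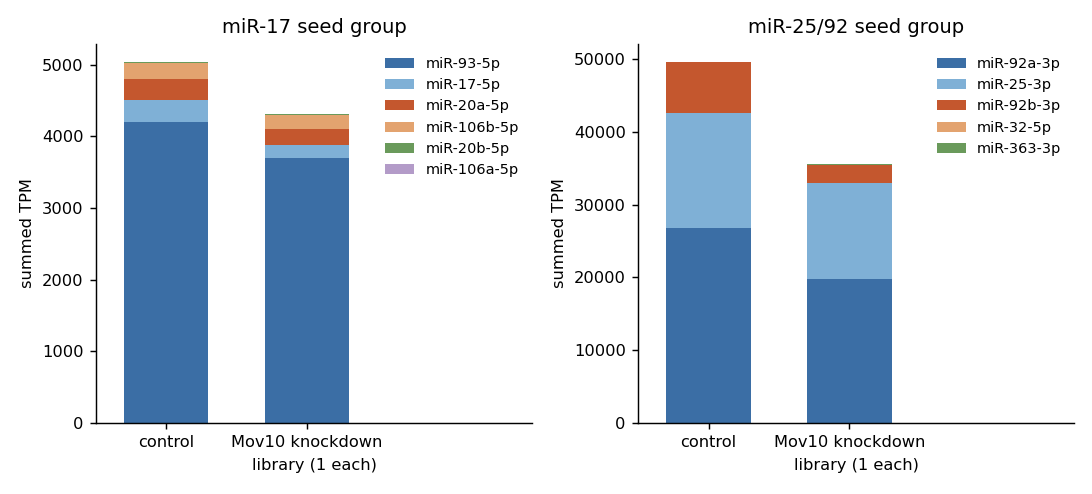
Summed TPM of the miRNAs with the miR-17 seed (left) and with the seed of miR-25-3p (right) in the control and the Mov10 knockdown library, stacked by mature form. miR-93-5p fills most of the left bars and miR-92a-3p and miR-25-3p most of the right bars, while miR-20b-5p, miR-106a-5p and miR-363-3p are too low to be seen.

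Arm use was compared within each hairpin, again without any library total. The 5p arm of Mir25 held 0.999% of the hairpin's reads in the control (0.952 to 1.05%) and 0.510% in the knockdown (0.445 to 0.582%), so that its ratio to the 3p arm was 0.508 of that in the control (95% exact conditional interval 0.439 to 0.586). For Mir93, the 3p arm held 0.560% (0.493 to 0.634%) and 0.405% (0.299 to 0.536%), a change in the arm ratio to 0.722 (0.518 to 0.988). For Mir106b, the ratio of the 5p to the 3p arm was 0.865 of that in the control (0.779 to 0.960). All 3 hairpins of the cluster had a lower share of their minor arm in the knockdown library.

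Over all 110 hairpins with both arms listed and at least 50 control reads on the minor arm, 56.4% had a lower minor arm share in the knockdown, and the median change of the arm ratio was 0.933. The lower and upper quartiles were 0.686 and 1.28. Counted from the lowest, Mir25 was at place 10 of 110, Mir93 at 34 and Mir106b at 47, so that of these 3 only Mir25 lay below the lower quartile. In the X-linked cluster no minor arm reached the minimum, and the intervals of the change ran from 0.0921 to 5.48 for Mir20b and from 0.0445 to 30.1 for Mir363.

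**Figure D5:**
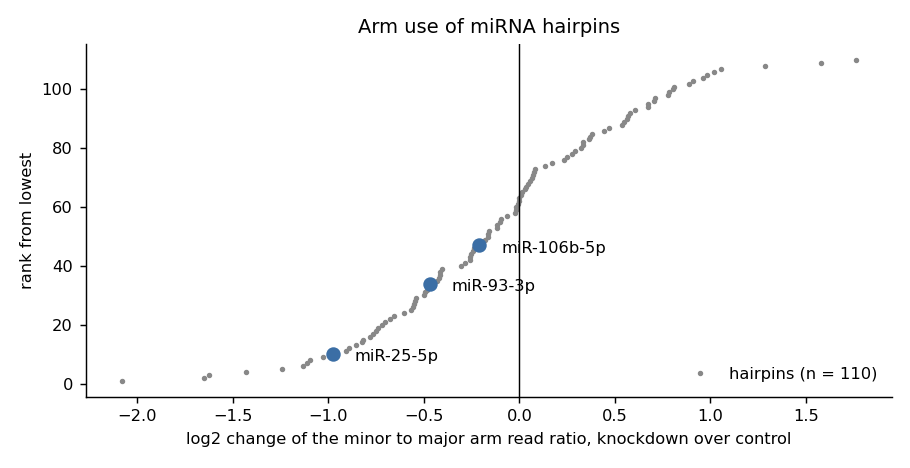
Log2 change, knockdown over control, of the minor to major arm read ratio for 110 hairpins (grey), ordered from the lowest, with the 3 hairpins of the miR-106b-25 cluster in blue and named by their minor arm. All 3 blue points lie left of 0, and miR-25-5p is at place 10 from the lowest.

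The listed miRNAs most like the highest form of each cluster were found by the distance of log2(TPM + 0.1) over the 2 libraries. For miR-25-3p they were miR-30e-5p, at 15250 and 14036 TPM, and miR-881-3p, at 13487 and 11075 TPM. For miR-363-3p they were miR-7b-5p, with the same 70 and 7 reads, and miR-466f, with 72 and 7. With 2 libraries this likeness describes only a pair of levels.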

How the data were processed

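Small RNA libraries of control and Mov10 knockdown SPCs were compared, 1 library per group. Per the methods, the authors used KASAVA to check read quality, removed rRNA reads and trimmed adaptors in Fastx, and then matched reads to miRBase with no mismatch allowed (CLC Genomics Workbench). The deposited values are whole-read counts and TPM of each mature miRNA, and how reads shared by several hairpins were counted is not given in the sources used here. The library total behind TPM was worked out as reads divided by TPM.

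For log2 fold changes 0.1 TPM was added to each value, which understates changes of low forms, and ratios without a pseudocount were given with exact 95% conditional binomial intervals. A miRNA was called over 1.5-fold with more than 1.5 TPM in at least 1 library; the methods do not say whether 1 or both libraries had to pass. Reads were tested by a two-sided exact binomial test given both library totals, with Benjamini-Hochberg adjustment at 0.05 over all 1096 miRNAs. Intervals and limits of 3 reads cover counting error only, because each group is 1 library. Reads also carry no molecular identifiers, so amplification copies could not be removed and the intervals may be too narrow. Ratios between forms used the exact conditional odds ratio. Other scalings (reads on miRNAs, median ratio, TMM of edgeR 4.0.16), minima, folds and pseudocounts were tried. Names of 908 among the 1096 miRNAs matched a RefSeq mature sequence. The test was also run on simulated reads that had counting error only, which cannot show how it behaves with spread between cultures.

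Every listed form of the 7 stems is reported, with the forms of the miR-17-92 cluster, forms that share a seed with a member and the 2 nearest by level. Members and lists were chosen with earlier results of these data known. RNA-seq of SPCs and CLIP-seq of testis were not analysed here. R 4.3.3, Python 3.11.15, numpy 2.4.6, pandas 2.3.3 and scipy 1.17.1 were used.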

Additional observations from a re-analysis of the deposited data

How the results depend on the processing

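No paired analysis was possible because control and knockdown are single libraries. The number of forms reduced over 1.5-fold was 4 of 9 with the deposited TPM. It was 9 of 9 with 1 common total (96.6% of all miRNAs), 2 of 6 with a minimum of 10 TPM (39.9% of all) and 6 of 13 with no minimum (51.2% of all). In the other settings it was 3 or 4 of the 7 to 9 left (26.5 to 41.7% of all). In all of these settings 0 members were raised. In the binomial test, 7 forms were lower and 0 higher, against 6 and 1 when scaled by the reads on miRNAs, 2 and 2 by the median ratio, 3 and 1 by TMM factors and 11 and 0 with a common total. The log2 ratio of the miR-106b-25 sum was -0.23. It was -0.17 by the reads on miRNAs, 0.02 by the median ratio, -0.02 by TMM factors, -1.95 with a common total and -0.19 without miR-25-3p. That of the miR-106a-363 sum was -1.08, and it was -2.80 with a common total and -0.41 with the shared miR-19b and miR-92a forms added, which make up nearly all of that sum. The relative change between the clusters, 0.556, was 0.885 with those forms and 0.558 to 0.783 in the other alternatives. These shifts under other scalings follow from the totals themselves. The X-linked forms are limited by depth, since the knockdown library gave 29 reads for all 7 of them.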
